A study of Mus musculus with 9 samples.

Results

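The genes described here lie on both sides of Atf2 on mouse chromosome 2, from Mettl8 to Prkra, and were measured in natural killer (NK) cells, lymphocytes that kill infected and transformed cells. They were chosen by their place on the chromosome, with earlier results of these data known. There are 40 of them, and 37 had a probe set annotated to that gene alone, among 18193 such genes on the array. These 37 had 68 probe sets. Rapgef4, Hoxd4 and Hnrnpa3 were without one and were not analysed here. RNA came from sorted NK cells in 3 groups of 3 biological replicates: spleen of IL15tg mice, spleen of NKDxIL15tg mice and bone marrow of NKDxIL15tg mice. Every group carried IL15tg, a transgene for interleukin 15, the cytokine on which NK cells depend, and the last 2 groups carried NKD as well. The design text names the IL15tg cells mature and the NKDxIL15tg cells immature, so the effect of the NKD genotype and that of maturity cannot be told apart. Age, sex, strain and zygosity of the mice, and any pooling of animals, are not given in the sources used here.

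NKD is a transgenic line whose NK cells stop developing early. Published work on the line describes its transgene, a Ly49A receptor driven by the granzyme A promoter, as inserted in Atf2. Foreign DNA in a chromosome can alter the output of genes beside it, so the values below are given along the chromosome. The interval holds 2 sets of developmental regulators, the Dlx1 and Dlx2 pair and the HoxD cluster with Evx2, among widely used genes of mitochondria, chromatin and the cytoskeleton. Dlx1 and Dlx2 are homeodomain transcription factors that are transcribed towards each other, share enhancers and specify forebrain interneurons. HoxD genes pattern the limbs and the body axis.

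The 250 bases upstream of the start site are shown for Dlx1, Dlx2, Gpr155 and Mtx2, the members with the largest changes past the test between the spleen groups. Sequences are from RefSeq on GRCm38.p6, printed 5′ to 3′ on the strand of the gene, and capitals mark CpG dinucleotides, the sites of DNA methylation. They come from chr2:71529195-71529444 (Dlx1, plus strand), chr2:71546755-71547004 (Dlx2, minus strand), chr2:73386481-73386730 (Gpr155, minus strand) and chr2:74825562-74825811 (Mtx2, plus strand).
Dlx1: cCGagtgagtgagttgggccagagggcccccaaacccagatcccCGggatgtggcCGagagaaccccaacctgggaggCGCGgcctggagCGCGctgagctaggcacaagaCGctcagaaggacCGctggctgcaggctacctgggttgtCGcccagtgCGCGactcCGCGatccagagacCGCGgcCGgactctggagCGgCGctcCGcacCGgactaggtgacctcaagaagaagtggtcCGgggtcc
Dlx2: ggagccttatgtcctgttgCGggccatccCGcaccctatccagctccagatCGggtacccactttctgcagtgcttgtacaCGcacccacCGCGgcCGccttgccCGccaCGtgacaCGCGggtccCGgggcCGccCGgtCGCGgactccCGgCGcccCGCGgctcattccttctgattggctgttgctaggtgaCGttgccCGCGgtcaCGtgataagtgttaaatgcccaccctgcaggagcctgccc
Gpr155: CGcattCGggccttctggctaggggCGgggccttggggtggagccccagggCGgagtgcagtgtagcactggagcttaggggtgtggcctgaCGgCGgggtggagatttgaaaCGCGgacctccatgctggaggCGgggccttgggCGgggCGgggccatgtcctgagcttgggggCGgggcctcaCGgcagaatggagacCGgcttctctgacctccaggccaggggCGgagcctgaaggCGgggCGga
Mtx2: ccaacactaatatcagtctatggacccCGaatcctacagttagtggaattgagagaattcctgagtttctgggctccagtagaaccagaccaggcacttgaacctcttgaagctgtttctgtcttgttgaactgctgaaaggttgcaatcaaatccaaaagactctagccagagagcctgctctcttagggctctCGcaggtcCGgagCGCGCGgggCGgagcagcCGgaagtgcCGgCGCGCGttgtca

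The Dlx1 window held 22 CpGs and the Dlx2 window 24, against 17 for Gpr155 and 12 for Mtx2. The median was 17 over the 47 promoters found for 39 of the 40 genes (Itga6 had no entry) and 6 over all 32851 promoters of the table, so windows of this interval were rich in CpG and the Dlx pair lay above its median. The palindrome TGACGTCA, bound by ATF and CREB dimers, stood in 0 of the 47 promoters and in 1.55% of all promoters of the same length. The AP-1 motif TGANTCA, searched on both strands, stood in 3 of 47 (6.38%), those of Cybrd1, Chrna1 and Hoxd11, and in 6.75% of all. None of the printed windows held either motif.

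Arrays had medians of 56.6 to 59.1, except NKDxIL15tg bone marrow replicate 3 with 64.9, which stood apart. More than 2-fold above the other 8 arrays were 2080 of its 27022 tested probe sets, where no other array had more than 6. Of the 2080, 2 belong to the genes described here. Of 12 NK cell markers 11 had a probe set, all above the filter of the test. Their summed intensity was 40883 to 42595 in IL15tg spleen, 30444 to 33955 in NKDxIL15tg spleen and 24953 to 27288 in NKDxIL15tg bone marrow. In the same order, the sum was 1360 to 1691, 3536 to 8125 and 12105 to 31525 over 12 markers of granulocytes and monocytes, with bone marrow replicate 3 at 31525. It was 1799 to 1924, 7440 to 7939 and 5336 to 7441 over 8 of 11 erythroid markers, most of it from the carbonic anhydrase Car2 (without it 414 to 484, 640 to 789 and 535 to 978), and 753 to 1368, 391 to 443 and 216 to 245 over 6 of 7 B cell markers. Sums overlapped between IL15tg and NKDxIL15tg spleen for 6 of 7 T cell markers (640 to 802, 601 to 1424 and 755 to 1305), 9 stromal and endothelial markers (430 to 455, 419 to 432 and 427 to 501) and 8 markers of neurons and glia (309 to 350, 338 to 369 and 345 to 380). Single NK cell markers differed in direction between the spleen groups. The mean of Klrd1 was 5941 in IL15tg and 1232 in NKDxIL15tg spleen. Means of Eomes (1973 and 2512), Cd244a (1400 and 1829) and Il2rb (785 and 1010) were higher in NKDxIL15tg spleen, and those of the rest were lower. No marker with a probe set was listed at 0. In bulk RNA, fewer cells of a type and less RNA per cell cannot be told apart.

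Between the spleen groups, 7 genes of the interval changed: Dlx1, Dlx2, Itga6, Hat1, Cdca7 and Mtx2 were higher in NKDxIL15tg, and Gpr155 was lower. Each gene was counted by its brightest probe set in limma, a linear model with a pooled spread, and called at a Benjamini-Hochberg adjusted p under 0.05. Of the 40 genes 29 were bright enough to be tested, so 7 of 29 (24.1%) passed, 6 higher and 1 lower. Over all 12925 genes tested, 12.5% passed (7.65% higher and 4.87% lower). Of the 29, 5 passed with a change of at least 2-fold (Dlx1, Dlx2, Cdca7, Gpr155 and Mtx2), against 4.38% of all genes. The 3 arrays of one spleen group lay beyond the 3 of the other for 11 of 29, against 36.3% of all genes. The median change was 0.05 on the log2 scale, against 0.02 over all genes. The marker sums given above differ between the same arrays, and their part in these changes was not tested. Genes were tested where their mean over the 9 arrays reached the filter, an intensity of 47.7, which Dlx1, Dlx2 and Cdca7 reached only through the NKDxIL15tg arrays. The other 8 genes had no probe set above the filter: Map3k20, Chn1, Evx2, Hoxd12, Hoxd11, Hoxd10, Hoxd3 and Hoxd1. With genes counted only where both spleen groups reached the filter on their mean, which leaves out Metap1d, Dlx1, Dlx2, Cdca7 and Chrna1, 4 of 24 passed (16.7%), against 11.9% of all such genes. The share of 24.1% and the count of 5 at 2-fold therefore rest in part on genes at low signal in one group. Of the 5, Gpr155 and Mtx2 remain among the 24.

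Dlx1 and Dlx2 were near the lowest signals of the array in IL15tg spleen and well above them in NKDxIL15tg cells of both organs. The intensity of Dlx1 was 15.9, 14.6 and 18.1 in IL15tg spleen, 847, 546 and 699 in NKDxIL15tg spleen and 659, 519 and 541 in NKDxIL15tg bone marrow. All 6 NKDxIL15tg arrays lay far above the 3 IL15tg arrays, and the NKDxIL15tg spleen and bone marrow arrays overlapped. Dlx1 rose by 5.36 ± 0.17 (log2 change ± standard error, n = 3 arrays per group; limma, adjusted p = 8.86e-07). The intensity of Dlx2 was 17.4, 19.5 and 24.9 in IL15tg spleen, 626, 414 and 471 in NKDxIL15tg spleen and 373, 263 and 355 in NKDxIL15tg bone marrow. Here the 3 bone marrow arrays also lay below the 3 NKDxIL15tg spleen arrays. Dlx2 rose by 4.61 ± 0.21 between the spleen groups (limma, adjusted p = 3.33e-06). Values under 16 were set to 16 before taking log2, which applied to 2 of the IL15tg arrays for Dlx1, so its fold depends on that floor: the change was 5.41 with a floor of 1 and 3.42 with a floor of 64, and that of Dlx2 was 4.61 and 2.95. The deposited table gives no detection calls, so the IL15tg values of the pair cannot be set apart from background.

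The pair lies 16 and 15 genes before Atf2, counted over protein-coding genes. Its immediate neighbours on the array differed from it and from each other. Metap1d, a mitochondrial methionine aminopeptidase on the side away from Atf2, was at 40.1, 49.0 and 46.7 in IL15tg and 47.5, 45.6 and 46.6 in NKDxIL15tg spleen, with a change of 0.05 ± 0.11. Itga6, on the other side, was higher in NKDxIL15tg spleen by 0.97, as given below. The rest of the DLX family did not pass: of Dlx3, Dlx4, Dlx5 and Dlx6, the last 2 were under the filter, and Dlx3 and Dlx4 gave 0.10 and -0.01. Of 8 markers of neurons and glia, 4 were tested and 0 passed in limma (0 at an unadjusted p under 0.05), with changes of -0.02 to 0.29. The neuronal gene Snap25 was at 12.5 to 20.8 and the glial factor Olig2 at 9.83 to 29.3 over the 9 arrays.

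**Figure D1:**
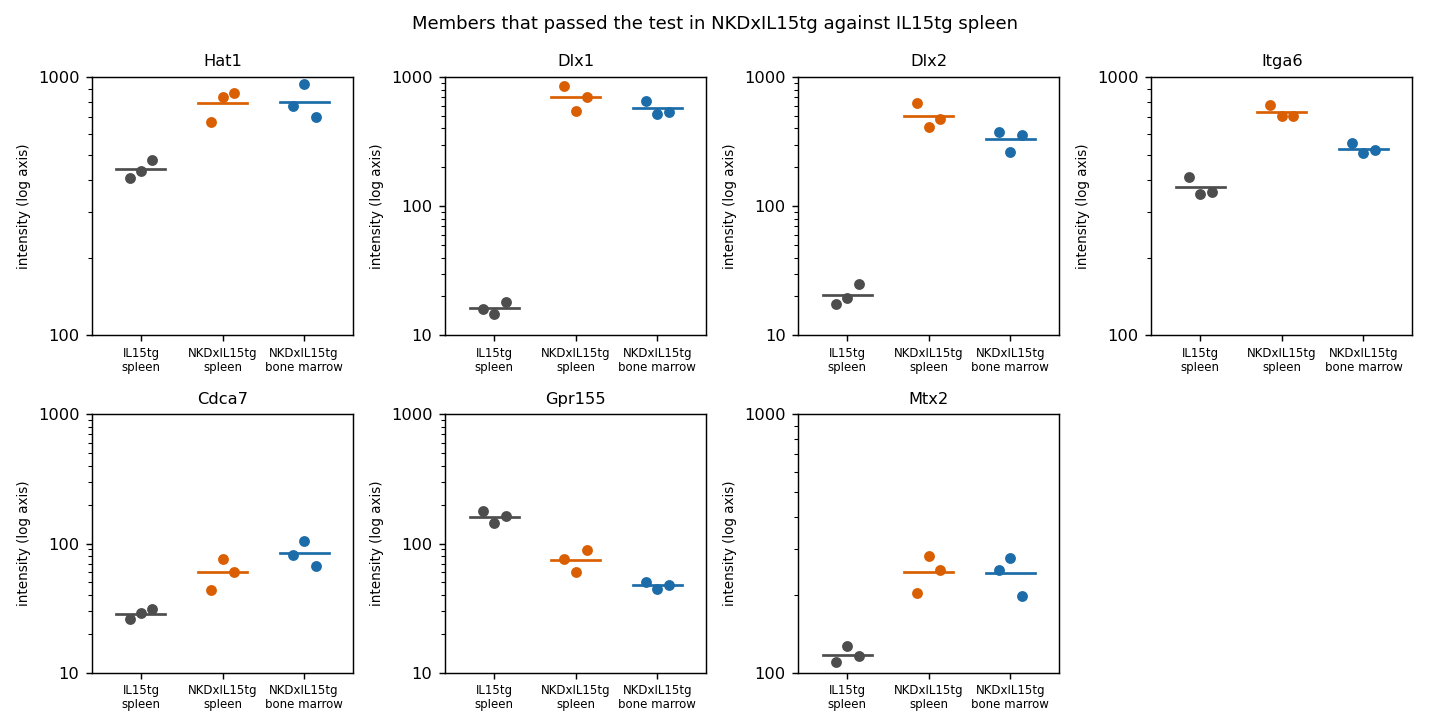
Intensity (log axis) of the 7 genes that passed in NKDxIL15tg against IL15tg spleen, one panel per gene, with a point per array and a line at the mean of each group of 3. Dlx1 and Dlx2 go from under 25 in IL15tg spleen to over 260 in every NKDxIL15tg array, Gpr155 is the one gene that is lower, and the axes of the panels differ.

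Among genes of the cell surface and membranes, Itga6 was higher and Gpr155 lower. Itga6 is the integrin alpha 6 chain, part of a laminin receptor. Its brighter probe set was at 409.9, 353 and 358 in IL15tg spleen, 780.2, 706 and 706 in NKDxIL15tg spleen and 554, 509.5 and 521 in NKDxIL15tg bone marrow. The 3 groups did not overlap, with NKDxIL15tg spleen highest and bone marrow between. Itga6 rose by 0.97 ± 0.11 between the spleen groups (limma, adjusted p = 0.000607). A second, dimmer probe set was at 284, 241 and 279 in IL15tg spleen, 428, 345 and 339.9 in NKDxIL15tg spleen and 331, 337 and 175 in NKDxIL15tg bone marrow, and its change of 0.46 ± 0.24 did not pass (limma, adjusted p = 0.254), although the spleen groups did not overlap there either. Gpr155, a lysosomal membrane protein that senses cholesterol, is 4 genes before Atf2. Its intensity was 178, 143 and 162 in IL15tg spleen, 75.3, 59.8 and 89.8 in NKDxIL15tg spleen and 50.7, 44.7 and 47.6 in NKDxIL15tg bone marrow. It was highest in all IL15tg arrays and lowest in all bone marrow arrays. Gpr155 fell by 1.12 ± 0.16 between the spleen groups (limma, adjusted p = 0.00243). Cybrd1, a ferric reductase (-0.23 ± 0.18), and Chrna1, the alpha subunit of the muscle acetylcholine receptor (-0.08 ± 0.15), did not pass, and Chrna1 was at 44.0 to 70.3 over all arrays.

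Of the chromatin and transcription genes, Hat1 and Cdca7 were higher. Hat1, which acetylates newly made histone H4, was at 406, 434 and 479 in IL15tg spleen, 668, 836 and 869.6 in NKDxIL15tg spleen and 771, 938 and 703 in NKDxIL15tg bone marrow. Every NKDxIL15tg array lay above every IL15tg array. Hat1 rose by 0.84 ± 0.15 between the spleen groups (limma, adjusted p = 0.00728). Cdca7, a partner of the chromatin remodeller HELLS, was at 26.0, 29.2 and 30.9 in IL15tg spleen, 43.9, 75.7 and 59.9 in NKDxIL15tg spleen and 82.0, 105 and 66.5 in NKDxIL15tg bone marrow. Its groups did not overlap between the genotypes, at low levels. Cdca7 rose by 1.03 ± 0.22 (limma, adjusted p = 0.0165), but gave adjusted p = 0.0700 without IL15tg replicate 1, 0.0572 without IL15tg replicate 2, 0.0556 without NKDxIL15tg spleen replicate 2 and 1.0 with a floor of 64 (change 0.08). Its second probe set stayed under the filter, at 24.0 to 33.5 on all arrays. Sp3, a zinc-finger transcription factor (0.09 ± 0.17), Cir1, a corepressor in Notch signalling (-0.28 ± 0.14), and Dcaf17, a substrate adaptor of a CUL4 ubiquitin ligase (-0.33 ± 0.13, limma adjusted p = 0.149), did not pass.

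Of the genes of mitochondria and metabolism, Mtx2 was higher and the others did not pass by their brightest probe sets. Mtx2, a protein of the mitochondrial outer membrane that takes part in import, is the first gene with a tested probe set beyond the HoxD cluster, 13 genes after Atf2. Its single probe set, of a type that can match more than one transcript, was at 109.9, 126 and 116 in IL15tg spleen, 204, 284 and 249 in NKDxIL15tg spleen and 250.2, 279 and 197 in NKDxIL15tg bone marrow. All NKDxIL15tg arrays lay above all IL15tg arrays, and the 2 organs overlapped. Mtx2 rose by 1.05 ± 0.16 between the spleen groups (limma, adjusted p = 0.00389). It was the 1 gene of 11 tested after Atf2 that passed, against 6 of 18 before it and 12.5% of all genes tested. Of the 6, Dlx1, Dlx2 and Cdca7 reached the filter only through the NKDxIL15tg arrays. Whether the shares before and after Atf2 differ was not tested. Mettl8, a methyltransferase of mitochondrial tRNA (-0.12 ± 0.11), and Agps, an enzyme of ether lipid synthesis (-0.25 ± 0.14), did not pass.

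Slc25a12, the mitochondrial aspartate and glutamate carrier, gave different values by probe set. The brightest was at 856, 861 and 852 in IL15tg spleen and 860.0, 863 and 722 in NKDxIL15tg spleen, with a change of -0.08 ± 0.11. A second one was at 128, 86.2 and 115 in IL15tg spleen, 228, 136 and 341 in NKDxIL15tg spleen and 216, 209 and 367 in NKDxIL15tg bone marrow. It was higher in every NKDxIL15tg array, yet its change of 1.02 ± 0.34 did not pass (limma, adjusted p = 0.0826). Another gave -0.32 ± 0.14. Of 10 genes with 2 or more tested probe sets, 1 gave different calls by probe set between the spleen groups, Itga6.

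Genes of the cytoskeleton did not pass in this comparison. Wipf1 encodes WIP, which binds and stabilises WASP, the actin regulator that NK cells use at the synapse with a target cell. It had the highest mean signal of the genes described here, at 2209, 2097 and 1924 in IL15tg spleen, 2221, 1560.0 and 1746 in NKDxIL15tg spleen and 2037, 1775 and 2064 in NKDxIL15tg bone marrow. The 3 groups overlapped, and its change was -0.19 ± 0.15 (limma, adjusted p = 0.477), with -0.23 ± 0.19 in its second probe set. Of 18 other genes of WASP and the ARP2/3 complex, 14 were tested and 2 passed, both higher: Arpc1a (0.60 ± 0.14) and Nck1 (0.49 ± 0.14, which passed in 7 of 18 alternatives). The median of these 14 was 0.02. Dync1i2, an intermediate chain of dynein, was at 693, 720.1 and 607 in IL15tg spleen, 558, 451 and 461 in NKDxIL15tg spleen and 547, 417 and 652 in NKDxIL15tg bone marrow. The spleen groups did not overlap, with NKDxIL15tg lower, and the change of -0.46 ± 0.17 did not pass (limma, adjusted p = 0.117, but 0.0441 without bone marrow replicate 3, 0.0352 with only the 2 spleen groups in the fit, 0.0340 with array weights and 0.0375 with quantile normalization).

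Chn1, a GTPase-activating protein for Rac and the next gene before Atf2, was under the filter in both of its probe sets. One was at 19.9, 20.1 and 15.7 in IL15tg spleen, 42.2, 41.1 and 45.7 in NKDxIL15tg spleen and 36.0, 42.9 and 43.0 in NKDxIL15tg bone marrow, and all NKDxIL15tg arrays lay above all IL15tg arrays. The other was at 42.2, 37.3 and 38.8 in IL15tg spleen, 46.4, 42.3 and 42.9 in NKDxIL15tg spleen and 45.0, 39.4 and 44.7 in NKDxIL15tg bone marrow, with smaller gaps. With all 45037 probe sets in the fit and no filter, the first gave 1.21 ± 0.12 (limma, adjusted p = 0.00145) and the second 0.15 ± 0.08 (adjusted p = 0.324). In the same fit, an Osbpl6 probe set under the filter was lower in NKDxIL15tg spleen (-0.44 ± 0.09, limma, adjusted p = 0.0287). Another of Osbpl6 gave -0.78 ± 0.19 (adjusted p = 0.0518). A Map3k20 probe set was higher in NKDxIL15tg bone marrow than in IL15tg spleen (0.56 ± 0.08, adjusted p = 0.00442). Apart from that of Hoxd11, given below, the remaining probe sets of the interval under the filter did not pass. Signals this low were not counted among the calls above.

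**Figure D2:**
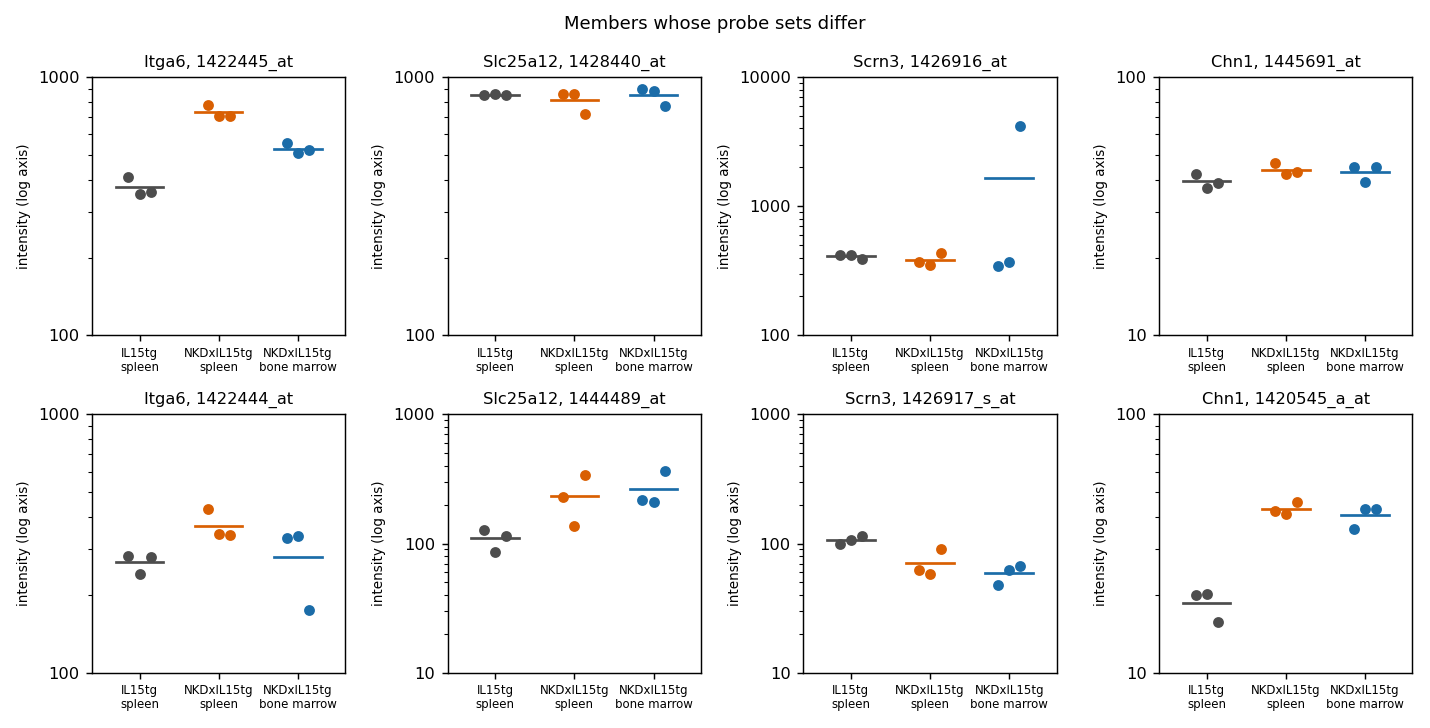
Intensity (log axis) of 2 probe sets, upper and lower, for each of Itga6, Slc25a12, Scrn3 and Chn1, with a point per array and a line at the mean of each group of 3. The pairs differ in pattern: the upper Slc25a12 probe set is level across groups while the lower one is higher in all NKDxIL15tg arrays, and 1 bone marrow array of Scrn3 stands alone at 4219. Both Chn1 probe sets lie under the filter.

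The homeobox genes on the other side of Atf2 did not share the change of the Dlx pair. Of Evx2 and the 9 HoxD genes, 9 were on a probe set that names them alone, and for 3 it was bright enough to be tested. Intensities of their 11 probe sets were 6.65 to 104 in IL15tg spleen, 7.20 to 105 in NKDxIL15tg spleen and 9.95 to 145 in NKDxIL15tg bone marrow. Hoxd13 (0.05 ± 0.17), Hoxd9 (-0.09 ± 0.11) and Hoxd8 (0.11 ± 0.11) did not pass between the spleen groups, and their 4 tested probe sets gave changes of -0.25 to 0.37 between the organs and -0.14 to 0.42 between bone marrow and IL15tg spleen. Hoxd11 was under the filter, at 21.4, 23.3 and 24.1 in IL15tg spleen, 30.5, 34.8 and 32.0 in NKDxIL15tg spleen and 33.4, 27.5 and 36.1 in NKDxIL15tg bone marrow. All 6 NKDxIL15tg values were above the 3 IL15tg values, and without the filter the change was 0.50 ± 0.11 (limma, adjusted p = 0.0369). Of 30 Hox genes of clusters A, B and C, 25 had a probe set, 12 were tested and 0 passed in limma between the spleen groups (2 at an unadjusted p under 0.05), with a median of 0.12.

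Further from Atf2 on the HoxD side, Nfe2l2 encodes NRF2, the transcription factor of the oxidative stress response. It was at 340.5, 359.8 and 329 in IL15tg spleen, 402, 315 and 379 in NKDxIL15tg spleen and 322, 275 and 368 in NKDxIL15tg bone marrow. The groups overlapped and the change was 0.08 ± 0.14 (limma, adjusted p = 0.796). NRF2 acts mainly through its protein level, and of 22 of its known targets 15 were tested: Txn1 (0.69 ± 0.13), Gsr (0.73 ± 0.16) and Gclm (0.61 ± 0.13) were higher and Gclc was lower (-0.70 ± 0.19), while 11 did not pass. The median of the 15 was 0.22, against 0.02 over all genes, and their share of 26.7% stands beside the 12.5% of all genes. Txn1 passed in 18 of 18 alternatives, Gclm in 16, Gsr in 14 and Gclc in 7. Pde11a, a cyclic nucleotide phosphodiesterase (0.06 ± 0.19), Rbm45, an RNA-binding protein (-0.11 ± 0.23), Osbpl6, an oxysterol-binding protein (0.11 ± 0.14), and Prkra, the activator PACT of the kinase PKR (0.25 ± 0.14), did not pass. Nor did Lnpk, which shapes junctions of the endoplasmic reticulum and lies 2 genes after Atf2 (-0.28 ± 0.13), or Ola1, an Obg-like ATPase (0.33 ± 0.23). The 22 genes of the interval that did not pass had changes of -0.46 to 0.33 and limma adjusted p-values of 0.117 or more. Spleen groups did not overlap for 4 of the 22. Counting genes whether or not they passed, it was 11 of 29, against 36.3% of all genes tested.

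Genes of the same interval outside the 40 did not pass by their brightest probe sets, which was so for 3 of 3 tested in limma (1 at an unadjusted p under 0.05). Atf2 itself had 5 probe sets with different patterns. The brightest was at 737, 629 and 618 in IL15tg spleen and 708, 641 and 935 in NKDxIL15tg spleen, with a change of 0.19 ± 0.23. Of the dimmer ones, 2 were higher in NKDxIL15tg spleen, by 0.59 ± 0.16 (limma, adjusted p = 0.0416, passing in 7 of 18 alternatives) and by 0.82 ± 0.20 (adjusted p = 0.0267, in 11 of 17). The latter was at 45.1, 32.5 and 35.0 in IL15tg spleen and reached the filter only through the NKDxIL15tg arrays. Its call was lost without a filter and with a floor of 64. The call was also lost without replicate 2 or 3 of IL15tg spleen and without replicate 2 or 3 of NKDxIL15tg spleen. Against IL15tg spleen, bone marrow gave 0.13 ± 0.16 and 0.84 ± 0.20 for these 2 probe sets and 0.10 ± 0.23 for the brightest. Only the change of 0.84 passed (limma, adjusted p = 0.0173, in 14 of 17 alternatives). Another tested probe set gave 0.42 ± 0.28 between the spleen groups and did not pass. One under the filter was at 58.2, 53.7 and 46.1 in IL15tg spleen and lower, at 29.9, 31.3 and 36.1, in NKDxIL15tg spleen. Atp5g3, a subunit of ATP synthase and the next gene after Atf2, was at 3924, 3832 and 3922 against 4579, 4794 and 4637. These values did not overlap, and the change of 0.26 ± 0.09 did not pass (limma, adjusted p = 0.102). Pdk1, a kinase of pyruvate dehydrogenase next to Itga6, gave -0.24 ± 0.26 in its brightest and -0.67 ± 0.14 (limma, adjusted p = 0.0154) in a dimmer probe set. In bone marrow against IL15tg spleen the dimmer one gave -0.63 ± 0.14 (limma, adjusted p = 0.0145). Beyond the ends, 0 of 13 tested among the next 20 genes before Mettl8 and 0 of 15 tested among the next 20 after Prkra passed between the spleen groups in limma (1 and 2 at an unadjusted p under 0.05). Over the rest of chromosome 2, 122 of 948 tested genes passed (12.9%).

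**Figure D3:**
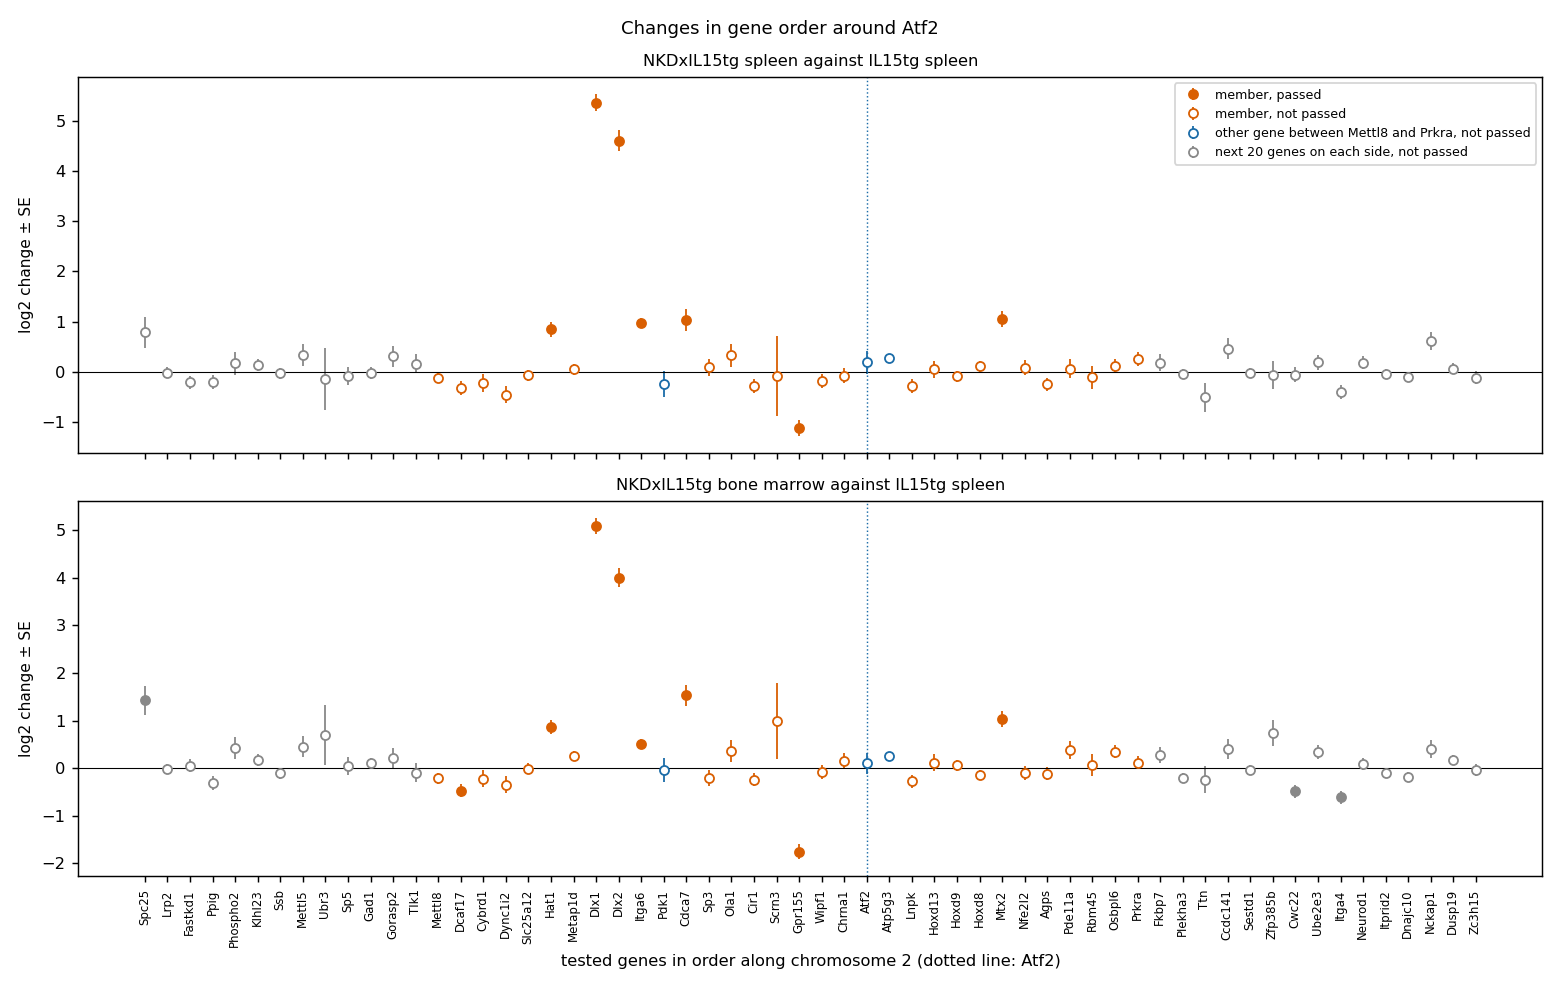
Log2 change with its standard error for tested genes in their order along chromosome 2, in NKDxIL15tg spleen (upper) and NKDxIL15tg bone marrow (lower), each against IL15tg spleen; filled points passed the test, orange points are the genes described here, blue points are other genes between Mettl8 and Prkra and grey points are the next 20 genes on each side. Dlx1 at 5.36 and 5.09 and Dlx2 at 4.61 and 4.0 stand above all others, Dlx1, Dlx2 and Itga6 are neighbours, and unfilled points lie between them and the other filled ones of the upper panel. Chn1, the next gene before Atf2 (dotted line), was under the filter and is not plotted.

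NKDxIL15tg bone marrow against NKDxIL15tg spleen compared organs within 1 genotype, and here 0 of 29 genes passed in limma. Over all genes 0.0696% passed. At an unadjusted p under 0.05 there were 5 of the 29, and the lowest adjusted p was 0.316. Groups did not overlap for 7 of 29, against 16.9% of all genes. Of the 7 genes above, Dlx2 (-0.60 ± 0.21, adjusted p = 0.442), Itga6 (-0.47 ± 0.11, adjusted p = 0.316) and Gpr155 (-0.64 ± 0.16, adjusted p = 0.344) were lower in all 3 bone marrow arrays than in all 3 spleen arrays, and limma did not call them. Dlx1 (-0.27 ± 0.17), Hat1 (0.02), Mtx2 (-0.02) and Cdca7 (0.51 ± 0.22) overlapped.

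The largest difference between the organs in the interval came from 1 array. Scrn3, a secernin, was at 417, 418 and 389 in IL15tg spleen, 371, 353 and 431 in NKDxIL15tg spleen and 342, 369 and 4219 in NKDxIL15tg bone marrow in its brightest probe set. Only bone marrow replicate 3 was high, far above every other array, which put the change between organs at 1.08 ± 0.80 with it and -0.11 without it. Another Scrn3 probe set, one that can match several transcripts, was at 99.7, 106 and 115 in IL15tg spleen, 62.1, 58.1 and 90.7 in NKDxIL15tg spleen and 47.7, 61.9 and 66.8 in NKDxIL15tg bone marrow. It was not high in that array. Hoxd13 also had a high value there, 145 in its dimmer probe set against 47.0 to 65.8 in the other 8 arrays.

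NKDxIL15tg bone marrow against IL15tg spleen differed in genotype and organ together, and shares arrays with both other comparisons, so its values stand beside theirs and are no separate support. In it 8 of 29 genes passed (27.6%), 6 higher and 2 lower, against 20.2% of all genes (11.5% higher and 8.7% lower). At least 2-fold were 5 of the 29, against 5.79% of all genes, and groups did not overlap for 12 of 29, against 42.1%. With both groups required to reach the filter, 4 of 24 passed (16.7%), against 19.1% of all such genes. This leaves out Metap1d, Dlx1, Dlx2, Cdca7 and Gpr155, so of the 5 at 2-fold only Mtx2 remains among the 24. The 7 genes named above passed with the same direction: Dlx1 at 5.09 ± 0.17, Dlx2 at 4.0 ± 0.21, Cdca7 at 1.54 ± 0.22, Mtx2 at 1.03 ± 0.16, Hat1 at 0.86 ± 0.15, Itga6 at 0.50 ± 0.11 and Gpr155 at -1.76 ± 0.16. Their adjusted p-values in limma were 9.04e-07, 6.1e-06, 0.00174, 0.00293, 0.00443, 0.0105 and 0.000169. The change of Itga6 was 0.43 with quantile normalization (adjusted p = 0.0507) and 0.45 with scaling to the 75th percentile (adjusted p = 0.0589), so its call depended on the scaling. Its dimmer probe set gave 0.01.

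The eighth gene was Dcaf17, at 185, 215 and 205 in IL15tg spleen, 155, 157 and 170.3 in NKDxIL15tg spleen and 124, 169 and 145 in NKDxIL15tg bone marrow. All NKDxIL15tg arrays lay below all IL15tg arrays, and it fell by 0.47 ± 0.13 (limma, adjusted p = 0.0346). Its call was lost without any one of IL15tg replicates 1, 2 and 3 (adjusted p = 0.0613, 0.119 and 0.0947), without bone marrow replicate 1 (0.0926) and without NKDxIL15tg spleen replicate 1 (0.0507). It was also lost with only the 2 groups compared in the fit (0.067), with a floor of 64 (0.0744) and with the mean of probe sets (0.053). Dimmer probe sets of Slc25a12 (1.23 ± 0.34, adjusted p = 0.0323, passing in 11 of 18 alternatives) and Scrn3 (-0.87 ± 0.19, adjusted p = 0.0124, in 17 of 17) passed where the brightest did not. That of Slc25a12 was lost when any one of IL15tg replicates 1, 2 and 3, bone marrow replicate 3 or NKDxIL15tg spleen replicate 1 was left out, without a filter and with a floor of 64, with adjusted p up to 0.139 over the alternatives. With Itga6 and Dcaf17, these make 4 genes whose probe sets gave different calls. The 21 genes that did not pass had changes of -0.34 to 0.99, the highest being Scrn3 with its one high array. Among the next 20 genes on each side, Spc25 (1.43 ± 0.31), Itga4 (-0.61 ± 0.14) and Cwc22 (-0.49 ± 0.14, in 8 of 18 alternatives) passed; they are named because they were the only ones, after their values were seen. Among the Hox genes of other clusters Hoxc9 passed at 0.59 ± 0.17 (in 8 of 18 alternatives).

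**Figure D4:**
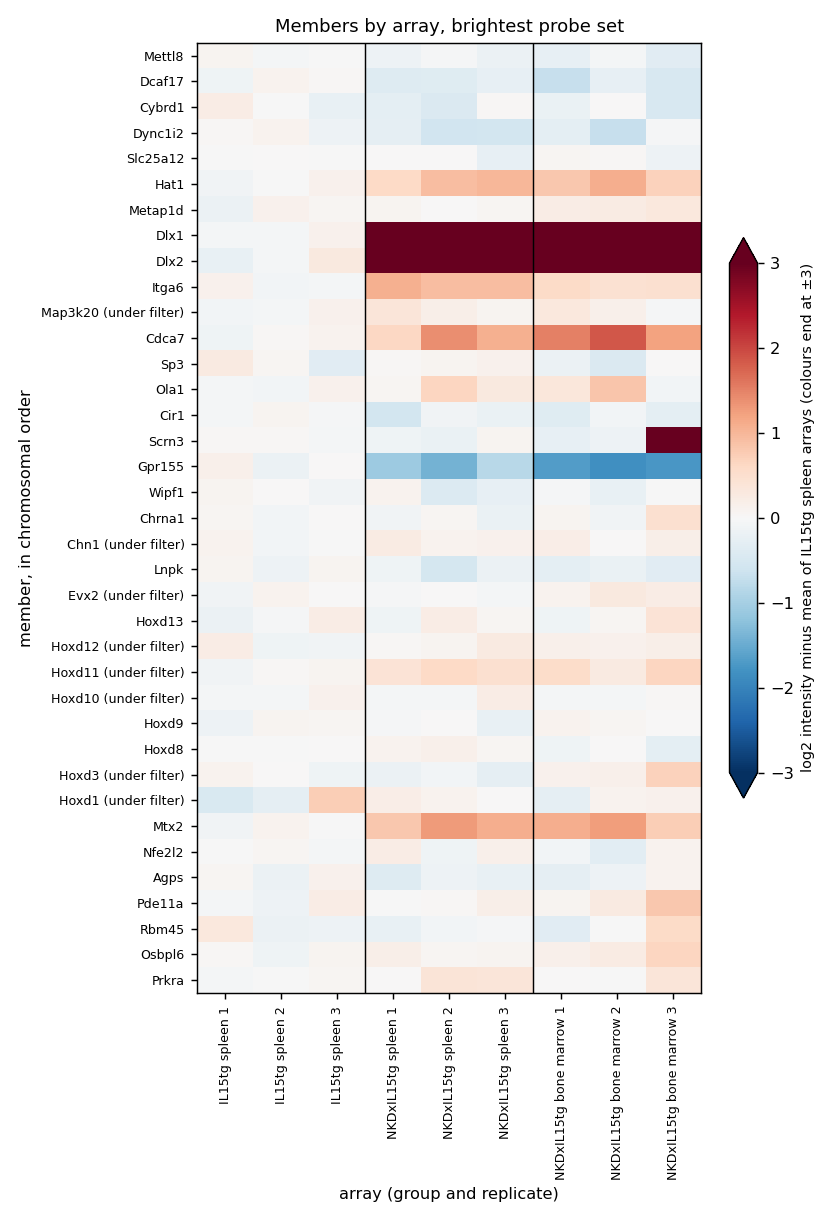
Log2 intensity of the brightest probe set of each of 37 genes, in chromosomal order, minus its mean over the 3 IL15tg spleen arrays; columns are the 9 arrays and colours end at 3 in either direction. Dlx1 and Dlx2 are dark in all 6 NKDxIL15tg arrays, Gpr155 is lower in all 6, and the dark cell of Scrn3 is bone marrow replicate 3 alone.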

How the data were processed

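The deposited table of the authors holds linear intensities of 45101 probe sets. How probes were summarised and arrays scaled, the image software and its settings are not given in the sources used here. Per the labels' protocols, RNA went through 2 cycles of amplification from the 3' end, so probe sets far from that end can read low. Intensities were floored at 16 and taken to log2, without rescaling. The 64 control probe sets were left out. The 27022 probe sets whose mean log2 intensity reached the 40th percentile (5.58) were tested in R 4.3.3 by limma 3.58.1 (eBayes after lmFit, 3 group means over all 9 arrays, 2-sided), adjusted by Benjamini-Hochberg over all of them. Limma sets differences against the spread of 3 arrays per group, pooled over groups, and the number of arrays limits the precision. An exact permutation test of 3 against 3 cannot go below 0.1 and was not run. The procedure was tested on simulated data. A gene was counted by its brightest probe set with 1 symbol in the platform annotation. Of all probe sets, 34945 had 1 symbol, 932 several and 9160 none. Names, gene order and promoters come from RefSeq on GRCm38.p6.

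All 40 genes were to be named, with Atf2 and other protein-coding genes of the interval. For the next 20 genes on each side and 4 lists (DLX, Hox of other clusters, NRF2 targets, WASP and ARP2/3), counts were to be given, naming those that passed. The members and lists were chosen with earlier results of these data known. Replicate numbers come from the labels. Deviations from group means correlated over probe sets at 0.123 to 0.163 for same-numbered arrays of IL15tg and NKDxIL15tg spleen (-0.319 to 0.155 for different numbers) and at 0.228 to 0.379 for NKDxIL15tg spleen and bone marrow (-0.349 to -0.007). Every pair was over 0.1 there, the limit for pairing. IL15tg spleen and bone marrow gave -0.024 to 0.242 (-0.370 to 0.267 for different numbers) and were not taken as paired. Fits with a replicate block were run. Alternatives were other floors and filters, 2 scalings, the mean of probe sets, array weights, only the 2 groups compared, and each array left out. Counting only genes whose compared groups both reached the filter was chosen after seeing the data.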

Additional observations from a re-analysis of the deposited data

How the results depend on the processing

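Between the spleen groups, 6 to 8 genes of the interval passed under 19 other settings (7 as reported), 6 to 8 when each array was left out. The genes of the interval tested ranged from 22 to 37 over these settings (29 as reported). Of all probe sets tested, 4.67% (floor of 64) to 21% (array weights) passed, against 13.8% as reported, so a similar count stood beside very different shares. Between the organs 0 passed in limma in every alternative run. Between NKDxIL15tg bone marrow and IL15tg spleen 5 to 10 passed (8 as reported), 7 to 9 when each array was left out. Here 7.7% (floor of 64) to 29.8% (array weights) of all probe sets tested passed, against 21.3% as reported. The 5 came from the mean of probe sets in place of the brightest, in which Itga6 (0.26) and Dcaf17 (-0.25) did not pass and Cdca7 was not tested. With genes counted only where both groups compared reached the filter, chosen after seeing the data, 4 of 24, 0 of 26 and 4 of 24 passed in limma. In the same order, 11.9%, 0.0323% and 19.1% of all such genes passed. The genes left out against IL15tg spleen included Dlx1, Dlx2 and Cdca7, which had passed, and for bone marrow also Gpr155. With the replicate block, for the pairing of arrays by number, the counts were 7, 0 and 8 and no call of a gene of the interval changed. Over 1614 changes of single genes compared with their reported values, 1590 stayed on their side of the threshold, 16 lost the call and 8 gained one, and no change that passed under either setting turned its sign. With the floor of 64, the filter kept all 45037 probe sets. Signal near the floor limits what can be said of the HoxD genes, Chn1 and the IL15tg levels of the Dlx pair.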
